A study of Mus musculus with 21 samples.

Results

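Ribosome-bound and total RNA were compared in mouse kidney at embryonic day 14.5, in 6 of the 21 libraries of the series. The libraries were chosen by their labels: 3 of the kidney translatome, which is the RNA recovered with tagged ribosomes by translating ribosome affinity purification (TRAP), and 3 of the kidney transcriptome, the total RNA of the same tissue samples. All embryos carried Sox2Cre+/- and Gt(ROSA)26Sor-mCherry-Rpl10a+/-, so the embryos behind the total RNA held the tag as well. The tag is an mCherry fusion of Rpl10a, a protein of the large ribosomal subunit, made from a CAGGS promoter once Cre has removed a stop cassette, and Sox2Cre acts in all cells of the embryo proper. The allele came from 1 targeted embryonic stem cell clone, each tissue sample pooled 4 kidneys, and libraries of the same replicate number came from the same tissue sample.

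An mRNA in use carries several ribosomes at once, and a pull-down of tagged ribosomes brings along the whole RNA, from cap to poly(A) tail, together with anything that rides on it. Sequencing such RNA beside the total RNA of the same tissue shows which transcripts hold a larger or smaller place among ribosome-bound RNAs than among all polyadenylated RNAs. The ratio is relative to the other transcripts of the library and does not count ribosomes per mRNA. An RNA that stays in the nucleus, is stored without ribosomes or is blocked before any ribosome forms on it offers no tagged ribosome to pull on.

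Transcriptome libraries held 31343319 to 51331105 counted reads, and translatome libraries 21760652 to 24605124. Translatome replicates 1 and 2 were sequenced in another run than the other 4 libraries. The tissue was kidney by its markers: 9 of 10 nephron progenitor, 13 of 13 ureteric bud, 10 of 10 early nephron, 8 of 8 podocyte and 10 of 10 stromal markers had a mean of at least 1 RPKM (reads per kilobase of transcript, scaled to the reads of the library) in both fractions. All values per replicate below are RPKM in the order 1, 2 and 3. A transcript is called enriched or depleted when its adjusted p was under 0.001 in edgeR's quasi-likelihood test of the counts, with Benjamini-Hochberg adjustment over all rows; changes are log2 ratios of translatome to transcriptome with their standard error (SE).

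Of 19336 transcripts tested, 2880 were enriched (14.9%) and 3049 depleted (15.8%), and with a change of at least 2-fold as well, 351 (1.82%) and 605 (3.13%). With the replicate number as a block, 4636 were enriched and 4860 depleted. Within the run that holds the 3 transcriptome libraries and translatome replicate 3, 1945 were enriched and 1791 depleted, a fit in which the lone translatome library is taken to vary as the others do. Beside the counts of a gene group below stand those with the block and within the run, enriched first, where either moves a count by over 1.5 times. Counts without the block are to be read beside the 14.9% and 15.8% of all transcripts. Of the 5929 called transcripts, 5923 had no overlap of RPKM between the fractions. A lack of overlap given below for a called gene is therefore no further support for it. The median change of all transcripts was -0.03, a value that the scaling of the libraries sets near 0, so a change is relative to the bulk of transcripts.

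The length of the coding sequence went with the change more closely than any other length. Among 12274 mRNAs with a mean transcriptome level over 1 RPKM, Spearman's rho of the change with coding length was -0.57, against -0.32 for the whole transcript, 0.01 for the 3′ untranslated region and 0.04 for the 5′ untranslated region (across genes, which are not independent). The decile with the shortest coding sequences, up to 546 bases, had a median change of 0.72, and 856 of its 1232 mRNAs were enriched and 22 depleted. The median then fell in every next decile, through 0.40, 0.16, 0.07, -0.02, -0.10, -0.19, -0.26 and -0.32, to -0.37 in the decile of at least 3480 bases, where 86 of 1228 were enriched and 650 depleted. It was 0.68, 0.69 and 0.71 for the shortest decile in pairs 1, 2 and 3, and -0.36, -0.37 and -0.37 for the longest. Across deciles of 3′ untranslated length the median stayed between -0.03 and 0.03.

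**Figure D1:**
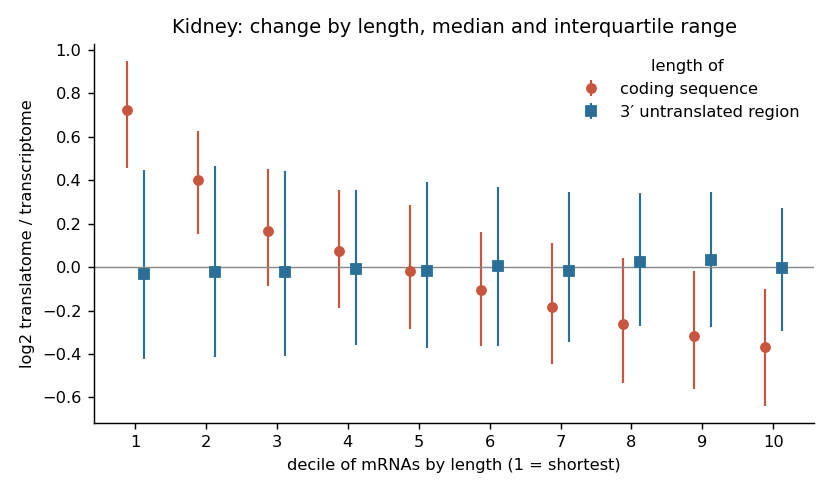
Median change (log2 ratio of translatome to transcriptome, vertical axis) in deciles of 12274 mRNAs by the length of their coding sequence and of their 3′ untranslated region (horizontal axis, decile 1 shortest). Points are medians and bars the interquartile range of each decile; the coding-length medians fall from 0.72 to -0.37 while those by 3′ untranslated length stay between -0.03 and 0.03.

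Upstream start codons, which in many mRNAs hold ribosomes back from the main reading frame, did not go with depletion here. A tagged ribosome on an upstream frame brings its mRNA along too, so these values cannot show whether ribosomes were held back. The median change was -0.08 in 6102 mRNAs with no ATG in the 5′ untranslated region, 0.06 in 4865 with 1 to 3, 0.10 in 1160 with 4 to 9 and 0.15 in 147 with over 9. For 287 mRNAs, at least 1 annotated transcript start of the gene read C and 4 further pyrimidines. The TOP mRNAs of the translation machinery begin in this way. These 287 had a median of 0.03, against -0.01 for the 9532 others with a start in the reference. Which start was in use is not known.

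Against the trend with length, 28 mRNAs of the longest decile were enriched at least 2-fold, while 90 were depleted as much. Among the 28 were the laminin chains Lama5, Lama1, Lama2 and Lama4, the basement membrane proteins Hspg2, Nid2, Agrn, Hmcn1 and Fras1, the fibrillins Fbn1 and Fbn2, the collagen Col6a3, the protease Adamts7 and the surface proteoglycan Cspg4. The others were the centrosome and cytokinesis genes Pcnt, Nin, Akap9, Crocc and Cit, and Cltc, Dsp, Nup214, Wdr33, Mpdz, Gm15800, Kalrn, Tnik and Smc1a. Of 32 mRNAs with coding sequences over 12000 bases, 24 lay below 0; 5 were enriched and 15 depleted.

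The laminin, nidogen, perlecan and agrin genes held more enriched than depleted members. Their products, with type IV collagen, build the basement membranes that underlie the ureteric bud and the new nephrons; the collagens are counted apart, below. Of 15 members, 9 were enriched, 8 of them at least 2-fold, and 2 were depleted (9 and 1 within the run), against 14.9% and 15.8% of all transcripts, with a median change of 1.23; the median lay 1.60 above that of mRNAs of the same coding-length decile, a difference taken here and below over the members with a known coding length and over 1 RPKM. Lama1, the laminin α chain of the early epithelium, had 27.8, 28.8 and 33.8 RPKM in the transcriptome and 77.5, 76.1 and 75.2 in the translatome (1.34 ± 0.07, adjusted p = 1.9e-07). Agrn, which encodes the proteoglycan agrin, had 102, 108 and 119.7 RPKM and 359, 355 and 366 (1.71 ± 0.08, adjusted p = 8.5e-08). Nid2, a nidogen, had 54.9, 55.2 and 58.1 RPKM and 247, 174 and 149 (1.76 ± 0.15, adjusted p = 4.2e-06). In all 3 genes the lowest translatome value was above the highest transcriptome value.

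The laminin chains did not move together, although a laminin trimer takes 1 chain of each kind. The 5 α chain genes were all enriched, Lama3 with a change of 1.31 at a translatome mean of 1.10 RPKM. The β chain gene Lamb1 was depleted, with 108, 110.1 and 117 RPKM in the transcriptome and 71.0, 66.3 and 73.3 in the translatome (-0.67 ± 0.06, adjusted p = 3.8e-06). The γ chain gene Lamc1 was not called, with 120.2, 126 and 129 RPKM and 113, 106 and 110.0 (adjusted p = 0.019, and 1.4e-06 with the replicate block). The calls of Nid2 and Lama4 were lost with the block under robust moderation (adjusted p = 0.033 and 0.033). The coding sequence of Lama1 spans 9252 bases and that of Lamb1 5505.

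**Figure D2:**
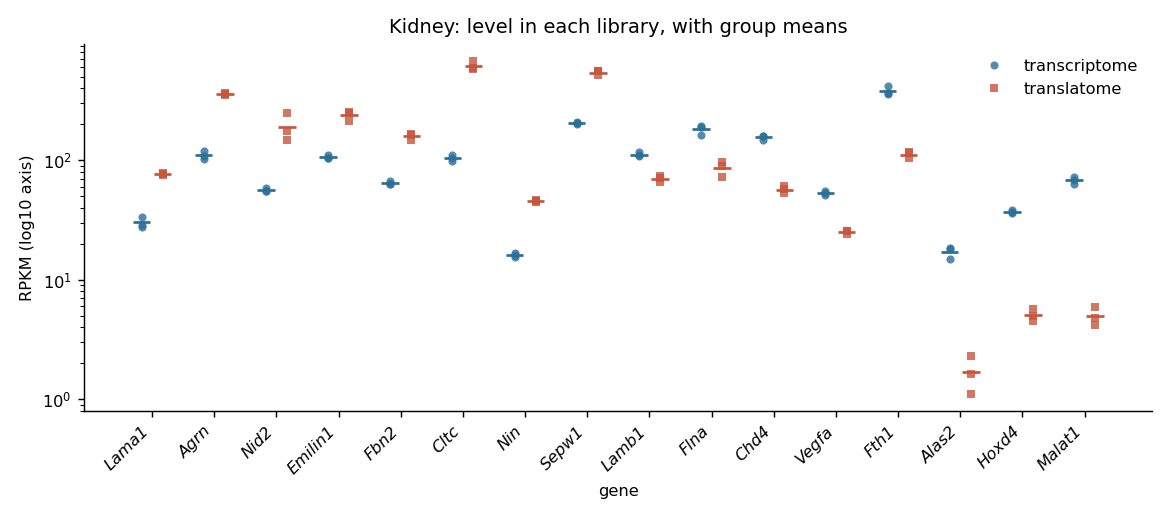
RPKM of 16 genes in each of the 6 kidney libraries on a log10 axis, circles for the transcriptome and squares for the translatome, with a line at each group mean. The matrix genes, Cltc, Nin and Sepw1 lie higher in all 3 translatome libraries, and Lamb1, Flna, Chd4, Vegfa, Fth1, Alas2, Hoxd4 and Malat1 lower, without overlap.

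None of the 6 genes of type IV collagen, the network partner of laminin, was called: Col4a1 had 221, 222 and 251 RPKM in the transcriptome and 181, 192 and 207 in the translatome (adjusted p = 0.021, and 2.8e-11 with the replicate block), and Col4a2 a change of -0.10 ± 0.07. Across 43 collagen genes, 3 were enriched and 6 depleted (10 and 14 with the block, 1 and 1 within the run), with a median of -0.04 and of 0.27 against their coding-length deciles. Enrichment was that of the fibril-associated or beaded collagens Col6a3 (1.74 ± 0.14) and Col12a1 (1.02 ± 0.13) and of Col22a1. The cartilage collagen Col2a1 (-0.87 ± 0.08) and the basement membrane collagens Col18a1 (-0.85 ± 0.05) and Col15a1 (-0.72 ± 0.06) were depleted. Of 19 genes of elastic microfibrils 5 were enriched and none was depleted (11 and 1 with the block, 4 and 1 within the run). Emilin1, a glycoprotein at the elastin surface, had 104, 111 and 104 RPKM in the transcriptome and 252, 249.98 and 211 in the translatome (1.16 ± 0.07, adjusted p = 4.7e-07), the translatome values being over those of the transcriptome in every library. Within the run Col12a1, Col15a1 and Col2a1 missed the threshold (adjusted p = 0.0012, 0.0013 and 0.0016).

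Integrins, the receptors that hold cells to these matrices, were called in small numbers. Of 26 integrin genes, 1 was enriched and 5 were depleted, with a median of -0.23 (2 and 10 with the block, 0 and 1 within the run). Without the block the depleted share was near the 15.8% of all transcripts, and the enriched share was below 14.9%. Against the coding-length deciles of the integrins the median was 0.15. Without transcriptome replicate 3 or without translatome replicate 1, 3 were depleted. Itga8, through which the metanephric mesenchyme responds to nephronectin, had 30.3, 30.9 and 32.8 RPKM in the transcriptome and 23.96, 24.7 and 26.7 in the translatome (-0.32 ± 0.05, adjusted p = 3.0e-04). The laminin receptor subunits Itga6 (-0.52 ± 0.07) and Itga3 (-0.39 ± 0.05) were depleted as well, and Itgb5 (0.41 ± 0.06) was enriched. Within the run all 4 missed the threshold, Itga8 with an adjusted p of 0.011; Itga8 was also lost without transcriptome replicate 3 or translatome replicate 1 or 2 (up to 0.0020), and Itgb5 without translatome replicate 3 (0.0011).

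Long mRNAs of the cytoskeleton split. Cltc, the clathrin heavy chain, was enriched (2.56 ± 0.09, adjusted p = 3.4e-08), one of 34 genes of vesicle coats and adaptors, of which 8 were enriched and 16 depleted, with a median of -0.23 and of -0.07 against their coding-length deciles. Its adaptor partners differed: the small Ap2s1 was enriched (0.89 ± 0.05, coding sequence 429 bases) and the large Ap2a1 (-0.69 ± 0.04, 2934 bases), Ap1b1 (-0.87 ± 0.04) and Ap3d1 (-0.69 ± 0.04) were depleted. Of 20 giant linker proteins of the membrane and cytoskeleton, 4 were enriched and 8 depleted (7 and 11 with the block, 4 and 5 within the run), with a median of -0.21 and of 0.16 against their coding-length deciles. The actin crosslinker Flna and the spectrin Sptbn1 were depleted, Flna from 195, 161 and 189 RPKM in the transcriptome to 97.5, 73.1 and 88.7 in the translatome (-1.07 ± 0.11, adjusted p = 1.6e-05). Within the run Sptbn1 missed the threshold (adjusted p = 0.0032). Tln1, encoding talin, which links integrins to actin and has a coding sequence of like length (7626 bases, against 7920 in Flna), was enriched, with 56.02, 53.6 and 56.4 RPKM and 94.8, 88.9 and 92.8 (0.74 ± 0.05, adjusted p = 1.2e-06).

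Centrosome genes split in the same way. Of 31, 10 were enriched and 13 depleted (10 and 8 within the run), with a median of -0.14 and of 0.12 against their coding-length deciles. Nin, encoding ninein of the mother centriole, had 16.8, 16.0 and 15.6 RPKM in the transcriptome and 46.8, 44.4 and 45.3 in the translatome (1.49 ± 0.04, adjusted p = 1.1e-08). Akap9, a scaffold for microtubule nucleation at the Golgi and centrosome, had 14.1, 14.5 and 14.1 RPKM and 39.8, 36.5 and 41.3 (1.46 ± 0.05). Alms1, whose product sits at the base of cilia, was depleted (-0.68 ± 0.07), as were Cep72 (-0.67 ± 0.07) and the kinetochore motor Cenpe (-0.58 ± 0.06). Among 44 kinesins and dyneins 2 were enriched and 19 depleted (1 and 14 within the run), with Kif12, a kinesin of renal epithelium, at -1.37 ± 0.09.

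Genes of oxidative phosphorylation, the chain of respiratory complexes and ATP synthase in the inner mitochondrial membrane, were enriched as a rule, and the depleted members were among its larger subunits. Of 75 nuclear genes 54 were enriched, 23 of them at least 2-fold, and 7 depleted (53 and 2 within the run), with a median of 0.74. Atp5e, the ε subunit of ATP synthase with a coding sequence of 159 bases, had 215, 224 and 251 RPKM in the transcriptome and 574, 605 and 567 in the translatome (1.34 ± 0.06, adjusted p = 5.4e-08). Atp5b, the catalytic β subunit of the same enzyme with 1590 bases, had 731, 759 and 746 RPKM and 527, 541 and 529 (-0.48 ± 0.06, adjusted p = 4.7e-05). The other depleted members were Atp5a1, Ndufs1, Ndufv1, Uqcrc1, Uqcrc2 and Sdha, and the 7 had coding sequences of 1362 to 2184 bases, against 159 to 1407 bases in the 54 enriched members. Within the run Atp5b and Atp5a1 missed the threshold (adjusted p = 0.0051 and 0.023), and Atp5a1 also without transcriptome replicate 2 or translatome replicate 1 or 2 (up to 0.0027). Against mRNAs of the same coding-length decile the median of the group was 0.12.

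Glycolytic genes went the other way. Of 15 genes none was enriched and 8 were depleted (0 and 13 with the block, 0 and 3 within the run), with a median of -0.59, and of -0.35 against their coding-length deciles. Pkm, the pyruvate kinase of growing tissue, had 318, 355 and 334 RPKM in the transcriptome and 205, 229 and 226 in the translatome (-0.61 ± 0.06, adjusted p = 1.5e-05). The hexokinase Hk1 (-0.60 ± 0.05) and the phosphofructokinase Pfkm (-0.60 ± 0.04) were depleted by like amounts. Within the run Pkm missed the threshold (adjusted p = 0.0016). The rows of Gapdh, Eno1 and Pgk1 are uncertain, since reads of these genes also match processed pseudogenes.

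**Figure D3:**
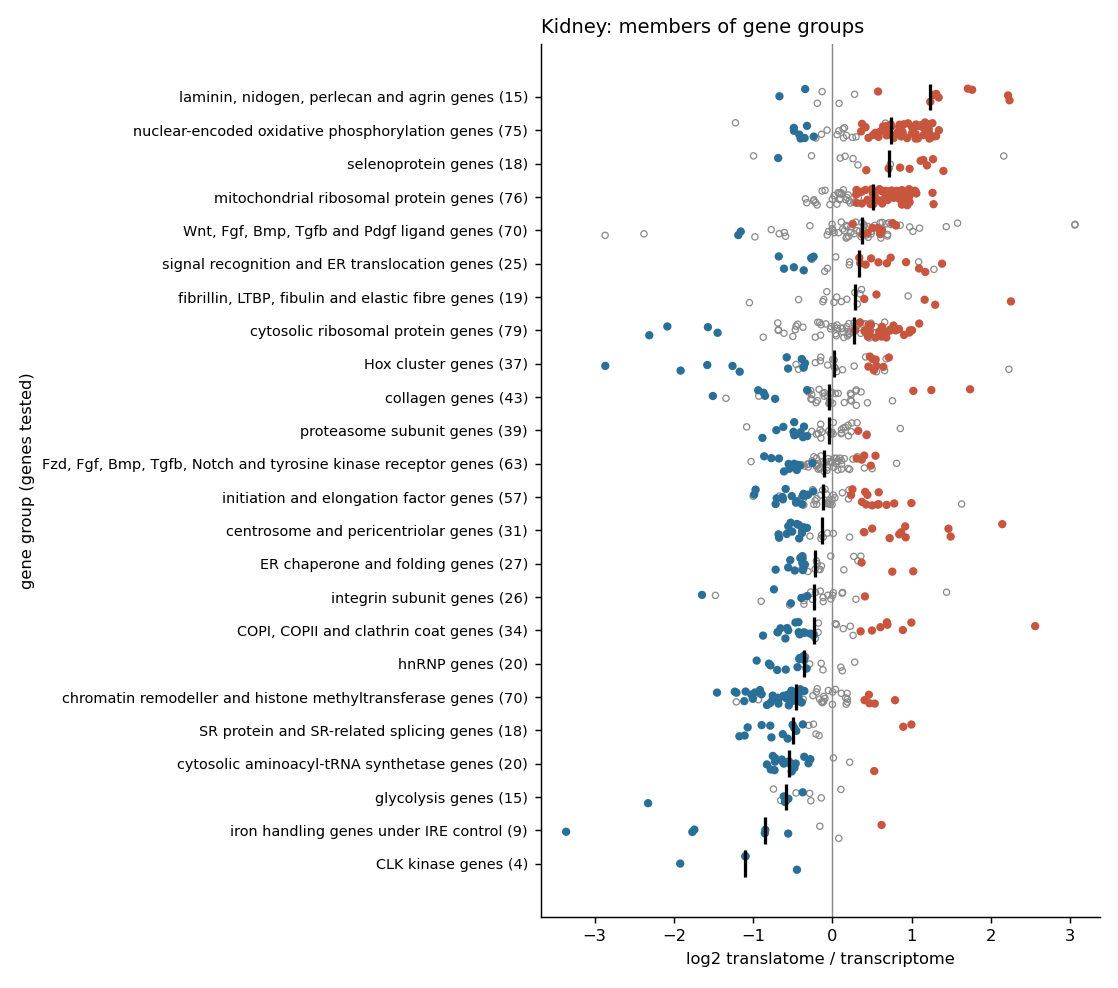
Change (log2 ratio of translatome to transcriptome) of every member of 24 gene groups, 1 point a gene, with filled points for called members and a bar at the group median. Groups are ordered by median: laminin and its partners, oxidative phosphorylation and selenoproteins lie to the right of 0, and iron metabolism, CLK kinases and glycolysis to the left.

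The translation machinery was no single group. Of 79 genes of cytosolic ribosomal proteins, 27 were enriched and 4 depleted (41 and 11 with the block, 20 and 1 within the run). Their median of 0.27 was -0.22 against mRNAs of their coding-length deciles, and these rows are uncertain, since reads of many of them also match pseudogenes. Rpl10a, the row of the tagged protein, was not called, with 15.7, 14.6 and 15.6 RPKM in the transcriptome and 11.6, 12.5 and 9.06 in the translatome (adjusted p = 0.0077, and 3.1e-08 with the block). Of 76 mitochondrial ribosomal protein genes 48 were enriched and none was depleted (54 and 5 with the block), with a median of 0.51, led by Mrps21 (1.28 ± 0.07), Mrpl33 (1.26 ± 0.06) and Mrpl54 (1.06 ± 0.05). Against their coding-length deciles their median was 0.02.

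Enzymes that charge tRNAs were depleted nearly throughout. Of 20 cytosolic aminoacyl-tRNA synthetase genes 17 were depleted and 1 enriched (2 and 17 with the block), with a median of -0.54, and of -0.36 against their coding-length deciles. Aars, for alanine, had 51.8, 51.7 and 51.8 RPKM in the transcriptome and 29.3, 28.8 and 32.4 in the translatome (-0.78 ± 0.05, adjusted p = 5.1e-07). Mars, for methionine, was the enriched one, with 44.8, 42.8 and 45.3 RPKM and 63.0, 66.7 and 62.0 (0.53 ± 0.04, adjusted p = 2.1e-06). Of 57 translation factor genes 13 were enriched and 16 depleted (15 and 27 with the block), among them the subunit-joining factor Eif5b (-0.72 ± 0.04) and the initiation factor subunit Eif3c (-0.70 ± 0.04), while the cap-binding Eif4e3 (1.00 ± 0.05) was enriched.

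Genes of the proteasome, which breaks down ubiquitin-marked proteins, showed 2 enriched and 11 depleted members of 39 (5 and 17 with the block, 1 and 11 within the run) at a median of -0.04, and of -0.28 against their coding-length deciles. The base subunits Psmd1 (-0.88 ± 0.04) and Psmd2 (-0.71 ± 0.04) were depleted and the core subunit Psmb2 (0.43 ± 0.04) enriched. In the route into the endoplasmic reticulum 11 of 25 genes were enriched and 6 depleted (10 and 3 within the run), with a median of 0.34 and of -0.06 against their coding-length deciles. The signal recognition particle shows both: Srp14 had 69.4, 68.6 and 75.0 RPKM in the transcriptome and 149, 158 and 172 in the translatome (1.17 ± 0.06, adjusted p = 1.4e-07), and Srp68 had 61.5, 62.7 and 62.6 RPKM and 40.4, 41.3 and 40.5 (-0.61 ± 0.03, adjusted p = 2.5e-07). Of 27 chaperones and folding enzymes of that compartment 3 were enriched and 11 depleted (6 and 18 with the block, 3 and 2 within the run). Hsp90b1 (-0.72 ± 0.07) and Hspa5, also called BiP (-0.53 ± 0.07), were depleted, while Manf, a small secreted stress protein, had 47.6, 46.1 and 53.6 RPKM and 94.2, 97.7 and 106 (1.02 ± 0.06, adjusted p = 4.7e-07). Within the run Hsp90b1 and Hspa5 missed the threshold (adjusted p = 0.0021 and 0.0077), and without translatome replicate 2, 5 of the chaperones were depleted.

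Iron metabolism held a group of mRNAs with a known block at their start. Iron regulatory proteins bind a hairpin, the iron-responsive element, near the 5′ end of ferritin, ferroportin and erythroid aminolevulinate synthase mRNAs and keep ribosomes off; in the transferrin receptor the elements lie in the 3′ untranslated region and guard stability. The loop of the element reads CAGTGN. These windows of the 5′ untranslated regions, read from GENCODE vM21 transcripts on GRCm38 and at most 30 bases long, are shown because the depleted members share the loop, in capitals.
Alas2: ttggttcgtcctCAGTGCagggcaacagga
Fth1: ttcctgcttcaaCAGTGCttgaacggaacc
Ftl1: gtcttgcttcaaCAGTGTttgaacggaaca
Slc40a1: caacttcagctaCAGTGTtagctaagtttg
The windows lie at chr19:9982732-9982761 (+ strand) for Fth1, chr7:45459778-45459807 (- strand) for Ftl1 and chr1:45925464-45925493 (- strand) for Slc40a1, and that of Alas2 spans 2 exons on the X chromosome (+ strand).

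Fth1, the ferritin heavy chain, had 356, 419.6 and 365 RPKM in the transcriptome and 114, 117 and 104 in the translatome (-1.77 ± 0.07, adjusted p = 3.7e-08). Ftl1, the light chain, had 265, 267 and 246 RPKM and 86.3, 77.7 and 68.4 (-1.74 ± 0.07, adjusted p = 5.6e-08). With coding sequences of 549 and 552 bases both go against the trend of short mRNAs. Ferroportin, Slc40a1, had 29.7, 30.7 and 26.9 RPKM and 15.8, 16.6 and 16.2 (-0.85 ± 0.05, adjusted p = 5.7e-07). Alas2, the first enzyme of heme synthesis in red cells, was the most depleted of them, with 14.8, 18.3 and 18.1 RPKM and 1.10, 1.63 and 2.31 (-3.36 ± 0.21, adjusted p = 4.4e-07). In each of these 4 genes the highest translatome value was below the lowest transcriptome value, a lack of overlap that nearly all called transcripts share.

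Not every member followed. Epas1, the hypoxia factor HIF-2α, whose mRNA is known for such an element though this search did not match it, was enriched, with 9.46, 10.1 and 9.96 RPKM in the transcriptome and 14.1, 15.1 and 16.1 in the translatome (0.62 ± 0.06, adjusted p = 5.7e-06). Tfrc, the transferrin receptor, was depleted with no such element at its 5′ end, having 44.9, 45.4 and 44.3 RPKM and 24.2, 25.8 and 24.5 (-0.85 ± 0.04, adjusted p = 7.2e-08). Over the list, 1 of 9 genes was enriched and 6 were depleted. The 6 letters alone are common, in 22.8% of 11912 annotated 5′ untranslated regions. With a stem of 5 pairs around them and the C of the bulge below it, they were found in 15 (0.126%), of which 8 were depleted and 3 enriched, and 5 of the 15 are members of the iron list. Sense strand alone was searched, and a match is letters and pairing, not a measured site.

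**Figure D4:**
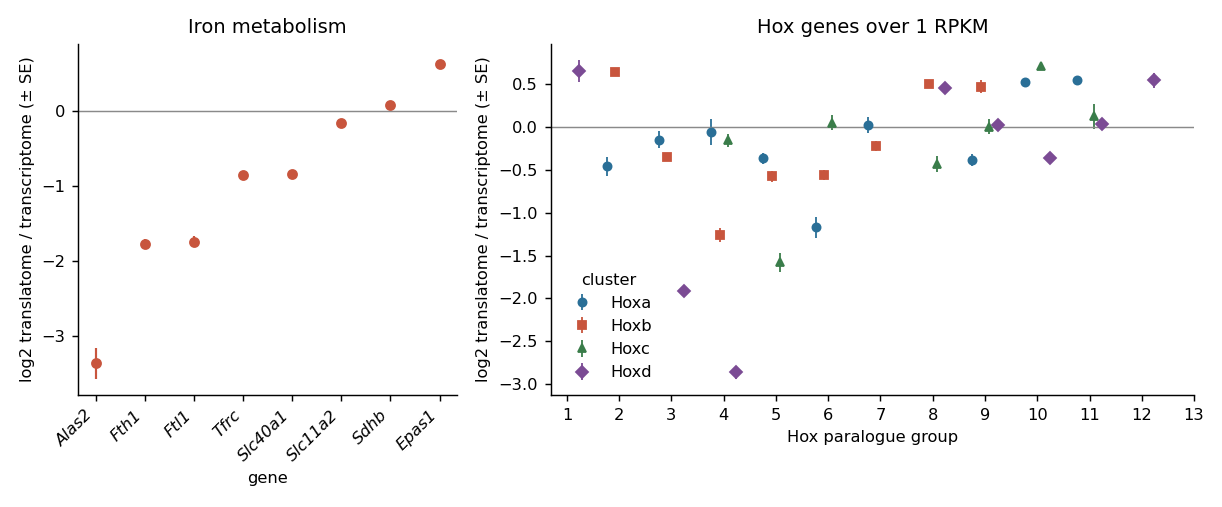
Left, change (log2 ratio, bar is the SE) of 8 of the 9 genes of the iron list; right, the same for 32 Hox genes over 1 RPKM, by paralogue group on the horizontal axis and by cluster in colour. Alas2, Fth1 and Ftl1 lie lowest on the left, and Hoxd4, Hoxd3, Hoxc5, Hoxb4 and Hoxa6 lie below -1 on the right.

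Stress response, selenoprotein and polyamine genes held more enriched than depleted members. Of 15 genes of the integrated stress response, several with upstream reading frames that pass the ribosome on when initiation is scarce, 8 were enriched and 1 depleted (6 and 0 within the run), with a median of 0.48, and 0.44 against their coding-length deciles. Atf4, its main transcription factor, had 99.98, 99.4 and 106 RPKM in the transcriptome and 146, 140.3 and 145.1 in the translatome (0.50 ± 0.04, adjusted p = 3.4e-06). Atf5 (0.83 ± 0.05), Cebpb (0.93 ± 0.13) and the translation repressor Eif4ebp1 (0.98 ± 0.09) were enriched as well, and the kinase Eif2ak4 (-0.40 ± 0.06) was depleted. Of 18 selenoprotein genes, which read a UGA codon as selenocysteine, 9 were enriched and 1 depleted (11 and 2 with the block), with a median of 0.72. Sepw1 had 199, 206 and 209 RPKM in the transcriptome and 554, 554 and 512 in the translatome (1.40 ± 0.04, adjusted p = 1.9e-08), Sep15 and the secreted peroxidase Gpx3 changed by 1.27 ± 0.04 and 1.19 ± 0.05, and the reductase Txnrd3 by -0.68 ± 0.07. Of 7 polyamine genes, among them the antizymes made by a frameshift of the ribosome, 3 were enriched, Sat1 (1.06 ± 0.16), Oaz2 (0.79 ± 0.05) and Azin1 (0.23 ± 0.04), and none was depleted (5 and 0 with the block, 1 and 0 within the run). Within the run Cebpb, Eif2ak4, Sat1 and Azin1 missed the threshold (adjusted p = 0.0075, 0.0094, 0.0031 and 0.0013). Sat1 was lost without translatome replicate 3 (0.0016), and Azin1 when any 1 library other than translatome replicate 1 was left out (up to 0.0045).

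More chromatin regulators were depleted than enriched. Of 70 chromatin regulators 5 were enriched and 41 depleted (10 and 50 with the block), with a median of -0.46 and of -0.09 against their coding-length deciles. Chd4, the ATPase of the NuRD complex, had 159, 149 and 160.1 RPKM in the transcriptome and 57.1, 60.7 and 52.8 in the translatome (-1.46 ± 0.06, adjusted p = 7.0e-08). Chd8 (-1.23 ± 0.04) and the histone methyltransferase Mll2 (-1.21 ± 0.08) were depleted as well. Smarca2, an ATPase of the BAF complex, was enriched, with 30.9, 27.2 and 30.6 RPKM and 52.9, 44.8 and 49.95 (0.79 ± 0.06, adjusted p = 9.8e-07).

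Of splicing factors more were depleted than enriched. Of 18 SR proteins and their relatives 2 were enriched and 12 depleted (1 and 11 within the run), with a median of -0.49 and of -0.66 against their coding-length deciles. Srrm2, a large scaffold of nuclear speckles, had 161, 162 and 157 RPKM in the transcriptome and 81.9, 73.4 and 67.2 in the translatome (-1.11 ± 0.08, adjusted p = 9.5e-07), and Srsf9 was enriched (0.89 ± 0.04). All 4 CLK kinases, which phosphorylate SR proteins and some of whose transcripts are known to stay in the nucleus with introns, were depleted, Clk4 from 31.9, 29.1 and 32.5 RPKM to 15.8, 14.6 and 13.2 (-1.10 ± 0.07, adjusted p = 8.6e-07) and Clk2 with a change of -1.10 ± 0.05. Of 20 hnRNP genes none was enriched and 12 were depleted (1 and 16 with the block), and of 10 genes of nonsense-mediated decay 1 and 5 (2 and 6 with the block, 0 and 3 within the run). Hnrnpu (-0.78 ± 0.06), Hnrnph1 (-0.80 ± 0.05) and the decay helicase Upf1 (-0.73 ± 0.03) were among the depleted.

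More cell division genes were depleted than enriched. Of 46 DNA replication genes 5 were enriched and 24 depleted (8 and 28 with the block, 3 and 20 within the run), and of 30 mitosis genes 2 and 20 (1 and 16 within the run). The small subunits Rpa3 (1.23 ± 0.10) and Pole4 (1.06 ± 0.05) were enriched, while the catalytic subunits of the polymerases, Pole (-0.82 ± 0.04) and Pold1 (-0.90 ± 0.04), were depleted. Mki67, the proliferation antigen Ki-67, had 84.4, 80.6 and 87.1 RPKM in the transcriptome and 30.9, 32.4 and 33.7 in the translatome (-1.38 ± 0.06, adjusted p = 5.0e-08). Cenpa, the centromeric histone, had 74.5, 86.5 and 77.1 RPKM and 137, 148 and 125 (0.79 ± 0.07, adjusted p = 3.9e-06). Histone genes, most of whose mRNAs end without a poly(A) tail and are poorly read in such libraries, gave 2 enriched of 59 and none depleted (6 and 0 with the block), the enriched ones being the neighbours Hist3h2ba (0.92 ± 0.10) and Hist3h2a (0.65 ± 0.08).

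Hox genes, which set position along the body axis, are described by paralogue group, a grouping chosen after the values were seen. Of 37 genes tested 8 were enriched and 11 depleted (5 and 8 within the run), and without translatome replicate 3, 5 were enriched. Of 15 genes of groups 3 to 7 with over 1 RPKM none was enriched and 9 were depleted, with a median of -0.36. Of 14 genes of groups 8 to 13, the more posterior ones, 7 were enriched and 2 depleted, with a median of 0.29. The 3 genes of groups 1 and 2, the most anterior ones, had a median of 0.64, with 1 enriched and none depleted. The change thus did not follow the order of the groups throughout. Hoxd4 had 36.8, 36.0 and 38.3 RPKM in the transcriptome and 5.02, 4.52 and 5.71 in the translatome (-2.87 ± 0.08, adjusted p = 1.1e-08), and its neighbour Hoxd3 had 22.9, 20.6 and 22.6 RPKM and 6.00, 5.75 and 5.75 (-1.91 ± 0.06, adjusted p = 2.1e-08). Annotated transcripts of Hoxd3, Hoxd4, Mir10b and an antisense RNA overlap there, and the kit does not mark strand, so reads cannot be assigned between them.

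Hoxc5 (-1.58 ± 0.11), Hoxb4 (-1.26 ± 0.08) and Hoxa6 (-1.17 ± 0.12) were depleted more than 2-fold in the other clusters. Hoxa11, needed with its paralogues for the ureteric bud to form, had 37.1, 38.0 and 38.3 RPKM in the transcriptome and 55.5, 55.8 and 55.1 in the translatome (0.55 ± 0.04, adjusted p = 7.2e-07). Hoxc10 had 55.4, 58.1 and 55.7 RPKM and 93.0, 93.7 and 90.4 (0.71 ± 0.04, adjusted p = 1.6e-07). Hoxd11, by contrast, was not called, with 43.2, 38.7 and 42.7 RPKM and 45.8, 38.3 and 42.0 (adjusted p = 0.68), and the groups overlapped. Among 362 zinc finger genes of the Zfp series 24 were enriched and 73 depleted (65 and 121 with the block, 11 and 39 within the run), with a median of -0.10 and of 0.05 against their coding-length deciles. Among called members at 5 RPKM or more the changes ran from -2.07 ± 0.08 in Zfp692 to 0.81 ± 0.06 in Zfp637.

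Of 70 genes of growth factors and morphogens 9 were enriched and 2 depleted (25 and 3 with the block, 5 and 2 within the run), with a median of 0.38; of 63 receptor genes 5 were enriched and 11 depleted (9 and 26 with the block, 4 and 5 within the run), with a median of -0.11. Against their coding-length deciles the medians were 0.17 for the signals and 0.17 for the receptors. Over all transcripts 14.9% were enriched and 15.8% depleted without the block. By that measure neither group held an excess of enriched members, and the depleted share of the receptors was near that of all. Bmp4, a signal of the stroma around the ureter, had 15.8, 15.8 and 16.4 RPKM in the transcriptome and 24.8, 24.3 and 24.9 in the translatome (0.63 ± 0.05, adjusted p = 4.1e-06). Tgfb1 had 17.2, 17.1 and 17.0 RPKM and 28.3, 28.4 and 30.3 (0.76 ± 0.05, adjusted p = 8.4e-07). For both, every translatome value was above every transcriptome value. Vegfa, the main growth factor of blood vessels, went the other way, with 51.6, 52.9 and 55.1 RPKM and 24.1, 25.6 and 25.6 (-1.16 ± 0.04, adjusted p = 3.5e-08). Its relative Vegfb was enriched (0.60 ± 0.06), and Bmp1, which despite its name is a protease that trims procollagen, was depleted (-1.19 ± 0.06). Gdnf, the signal that draws out the ureteric bud, had 21.8, 27.2 and 22.0 RPKM in the transcriptome and 22.1, 27.2 and 21.5 in the translatome, without a call (adjusted p = 0.99). When any 1 library other than translatome replicate 1 was left out, the number of enriched signals was 4 or 5.

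Of the receptors, those of the Notch family differed among themselves. Notch1 had 26.4, 27.2 and 28.1 RPKM in the transcriptome and 14.9, 14.7 and 15.3 in the translatome (-0.86 ± 0.04, adjusted p = 9.0e-08). Notch2, which acts in early nephrons, had 31.4, 33.1 and 32.8 RPKM and 19.8, 19.9 and 21.2 (-0.67 ± 0.05, adjusted p = 7.7e-07). Both were lower in all 3 translatome libraries. Notch3, known from mural cells, was enriched, with 31.4, 28.9 and 29.3 RPKM and 50.3, 39.5 and 40.7 (0.54 ± 0.08, adjusted p = 2.8e-04). Ret, the receptor of Gdnf, had 10.6, 13.1 and 12.3 RPKM and 7.01, 9.56 and 9.22, not called (adjusted p = 0.0049, and 1.8e-27 with the block). Of 355 solute carriers, the membrane transporters, 31 were enriched and 55 depleted (53 and 101 with the block, 20 and 24 within the run). Without the block the depleted share was near the 15.8% of all transcripts, and the enriched share was below 14.9%. Among the called carriers were the zinc carrier Slc39a1 (0.82 ± 0.05) and the anion exchanger Slc4a3 (-1.59 ± 0.08).

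More noncoding RNAs were depleted than enriched, but as a class they lay near 0 apart from the small RNAs. Of 1527 noncoding rows outside microRNAs and small nucleolar and Cajal body RNAs, 57 were enriched and 109 depleted. Their median change was -0.16, and both shares were below the 14.9% and 15.8% of all transcripts. Of 20 long noncoding RNAs known from the nucleus or from imprinted loci 2 were enriched and 7 depleted, with a median of -1.37. Malat1, of nuclear speckles, had 68.2, 72.2 and 63.2 RPKM in the transcriptome and 4.17, 4.76 and 5.89 in the translatome (-3.78 ± 0.11, adjusted p = 1.1e-08). Meg3, of the imprinted Dlk1-Dio3 locus, had 63.3, 45.6 and 47.6 RPKM and 4.17, 3.56 and 4.07 (-3.57 ± 0.13, adjusted p = 3.2e-08), and Neat1, the scaffold of paraspeckles, changed by -3.10 ± 0.17. H19, an imprinted RNA and the most abundant noncoding row, took 0.556% to 0.591% of all reads of transcriptome libraries and 0.147% to 0.160% of those of translatome libraries (-1.93 ± 0.09). Tug1 (0.41 ± 0.05) and Peg13 (0.92 ± 0.06) were enriched. The call of Malat1 was lost with the block under robust moderation (adjusted p = 0.0017).

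Xist, which coats the inactive X chromosome and stays in the nucleus, was read at 199, 199 and 0.463 RPKM in the transcriptome and 5.83, 6.57 and 0.233 in the translatome. Replicate 3 held almost none in either fraction, and both of its libraries came from 1 tissue sample. The gene was not called without the block (adjusted p = 0.020), although the log2 ratio within pairs was -5.08, -4.92 and -0.94; with the block its change of -4.85 was called, though not under robust moderation (adjusted p = 0.036), and it was called without transcriptome replicate 3 (adjusted p = 1.4e-04). It was picked out after its values were seen.

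Host transcripts of small nucleolar RNAs, whose introns carry the small RNAs and whose spliced exons reach the cytoplasm, split: of 14 tested 1 was enriched and 4 depleted (4 and 6 with the block). Snhg1 had 141, 131 and 147 RPKM in the transcriptome and 274, 269.6 and 235 in the translatome (0.90 ± 0.06, adjusted p = 1.0e-06). Gas5 had 96.6, 91.0 and 92.0 RPKM and 48.7, 56.02 and 46.5 (-0.88 ± 0.06, adjusted p = 1.0e-06), and Dancr 16.0, 15.7 and 16.1 RPKM and 3.26, 3.89 and 3.07 (-2.22 ± 0.11, adjusted p = 1.5e-07). The small RNAs themselves had few reads: 169 of 325 tested had no translatome read, and Snora33, Snord100 and Snord32a, with 95, 119 and 109 transcriptome reads over the group and 0 in the translatome, were at least 18.0-fold, 22.5-fold and 20.6-fold lower, taking 3 reads over the group as the limit that a count of 0 allows for counting error. Within the run these 3 missed the threshold (adjusted p = 0.0015, 0.0034 and 0.0025). Dnm3os, a host of microRNAs in mesenchyme, had 4.91, 4.80 and 6.02 RPKM and 0.159, 0.0714 and 0.0957 (-5.57 ± 0.20, adjusted p = 3.0e-08).

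Beyond the groups above, mRNA rows with the largest changes can overlap a neighbour in the annotation. Of the 15 largest falls 12 overlap another gene, 7 of them one on the other strand, and of the 15 largest rises 11 and 8. The share over all transcripts was not counted, so overlap is not shown to be particular to these rows. Without strand the reads of overlapping genes cannot be told apart. Leng8 had 67.7, 64.6 and 65.8 RPKM in the transcriptome and 11.8, 10.7 and 10.8 in the translatome (-2.57 ± 0.05, adjusted p = 1.8e-09). Lime1, a membrane adaptor of lymphocyte signalling, had 24.4, 24.3 and 26.0 RPKM and 3.99, 3.42 and 3.15 (-2.82 ± 0.09, adjusted p = 1.9e-08), and Prrt2, a synaptic protein, 10.3, 9.67 and 10.4 RPKM and 1.68, 1.24 and 1.30 (-2.84 ± 0.12, adjusted p = 5.6e-08). Among the 15 largest rises, Tmsb4x, encoding the actin-binding thymosin β4 in 135 bases, was the most abundant, with 588, 566 and 599 RPKM and 1872, 1709 and 1696 (1.59 ± 0.06, adjusted p = 3.7e-08).

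The fractions also differed in markers of some cell types, although both came from the same tissue samples and so from the same cells. The share of ribosomes that carry the tag could differ between cell types, and it was not tested. Red blood cell genes were lower in the translatome: 6 of 7 tested members were depleted (0 and 3 within the run), and the summed level of the list was 838 to 1107 RPKM in the transcriptome and 104 to 195 RPKM in the translatome. The embryonic globin Hbb-y had 408, 548 and 279.8 RPKM and 122.8, 152 and 77.9 (-1.81 ± 0.25, adjusted p = 1.4e-04), and the adult globin row Beta-s had 363, 427 and 409.6 RPKM and 27.7, 37.4 and 37.3 (-3.55 ± 0.10, adjusted p = 1.2e-08). Hba-a1, Hba-a2 and Hbb-b1 are listed with 0 reads in all 6 libraries. Alas2 belongs to this list as well, and how much of its loss goes with red cells was not tested. Within the run Hbb-y missed the threshold (adjusted p = 0.0014).

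Endothelial markers lay higher. Of 10 members 6 were enriched and none was depleted (7 and 1 with the block), and the summed level was 311 to 346 RPKM in the transcriptome and 428 to 461 RPKM in the translatome. Pecam1 had 39.2, 39.6 and 43.7 RPKM and 63.0, 66.8 and 67.9 (0.69 ± 0.05, adjusted p = 1.3e-06), and the receptor Kdr had 23.2, 24.1 and 25.05 RPKM and 21.2, 22.3 and 21.9 (adjusted p = 0.012, and 7.1e-04 with the block). Of smooth muscle and mural markers 1 of 7, Cspg4, was enriched (3 and 1 with the block), at a summed level of 70.7 to 94.6 RPKM against 112 to 122 RPKM. The call of Cspg4 was lost with the block under robust moderation (adjusted p = 0.018). Both cell types lay down basement membrane, and the part of this shift in the gain of matrix genes was not tested.

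Few markers of the epithelial and mesenchymal lines of the kidney were called. Of 10 nephron progenitor markers 0 were enriched and 2 depleted (3 and 3 with the block, 0 and 1 within the run), with a summed level of 392 to 417 RPKM in the transcriptome and 394 to 429.9 RPKM in the translatome. Six2, the factor that keeps progenitors uncommitted, had 93.0, 87.7 and 74.6 RPKM and 127, 117 and 99.9 (adjusted p = 0.0029, and 1.2e-27 with the block), and Sall1 had 88.7, 87.8 and 87.7 RPKM and 65.7, 62.7 and 64.0 (-0.46 ± 0.04, adjusted p = 7.7e-06). Of 10 early nephron markers 4 were depleted (0 and 7 with the block, 0 and 2 within the run), Pax8, Cdh6, Jag1 and Lhx1, and the summed level was 261 to 279.5 RPKM in the transcriptome and 194 to 219 RPKM in the translatome. Of 13 ureteric bud markers 2 were depleted, Cdh1 among them (2 and 7 with the block, 0 and 1 within the run). In the stroma Foxd1 was enriched, with 43.98, 37.0 and 39.2 RPKM and 79.5, 58.5 and 56.9 (0.70 ± 0.12, adjusted p = 4.7e-04), and Pdgfrb depleted (-0.41 ± 0.05; 5 and 3 with the block, 0 and 1 within the run), at summed levels of 794 to 915 RPKM and 783 to 969 RPKM. Of 8 podocyte markers, Cldn5, which endothelium shares, was enriched (0.37 ± 0.05; 4 and 1 with the block, 0 and 0 within the run), and Wt1 had 87.9, 91.8 and 94.2 RPKM and 86.7, 86.3 and 89.5. Within the run Cdh6, Lhx1, Pdgfrb, Foxd1 and Cldn5 missed the threshold (adjusted p = 0.0024, 0.0012, 0.0034, 0.0027 and 0.0011), and Foxd1 also without transcriptome replicate 2 or 3 (up to 0.0014).

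Markers of other tissues summed to low levels. Macrophage markers summed to 47.5 to 50.8 RPKM in the transcriptome and 53.7 to 64.6 RPKM in the translatome, with 1 of 10 enriched (Tyrobp) and 1 depleted (Cd68; 4 and 1 with the block, 0 and 1 within the run), Tyrobp missing the threshold within the run (adjusted p = 0.0036). Neuronal, Schwann and chromaffin markers summed to 8.47 to 9.00 RPKM and 8.57 to 12.5 RPKM, with Th, Dbh, Sox10 and Chga under 1 RPKM. Of these 9 markers 1 was enriched and 1 depleted (2 and 1 with the block), with a median of -0.65. The enriched one was Stmn2 (1.00 ± 0.16). It missed the threshold within the run (adjusted p = 0.010) and without transcriptome replicate 1 or 2 or translatome replicate 2 (up to 0.0014). Gonad and adrenal markers summed to 8.45 to 9.08 RPKM and 3.76 to 5.21 RPKM, with Star and Inha depleted, which both lost their call within the run (adjusted p = 0.0059 and 0.0037), and Inha also without transcriptome replicate 1 or 3 (up to 0.0014).

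The same fractions of forebrain, from embryos of the same genotype, allowed the kidney changes to be set against another organ in an interaction test over 12 libraries. Of 20108 transcripts the change was higher in kidney for 829 (4.12%) and lower for 472 (2.35%), and with the replicate block for 1978 and 1467. Oxidative phosphorylation had the same direction in both organs and a smaller gain in kidney: its median was 0.74 in kidney and 1.23 in forebrain, and the interaction was lower in kidney for 25 of 75 genes and higher for none (57 and 1 with the block). The proteasome (19 of 39, medians -0.04 and 0.38) also had lower interactions and no higher one. So did the cytosolic ribosome (7 of 79, and 32 with the block, medians 0.27 and 0.78). Mitochondrial ribosomal protein genes shared this (7 of 76, and 31 with the block).

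**Figure D5:**
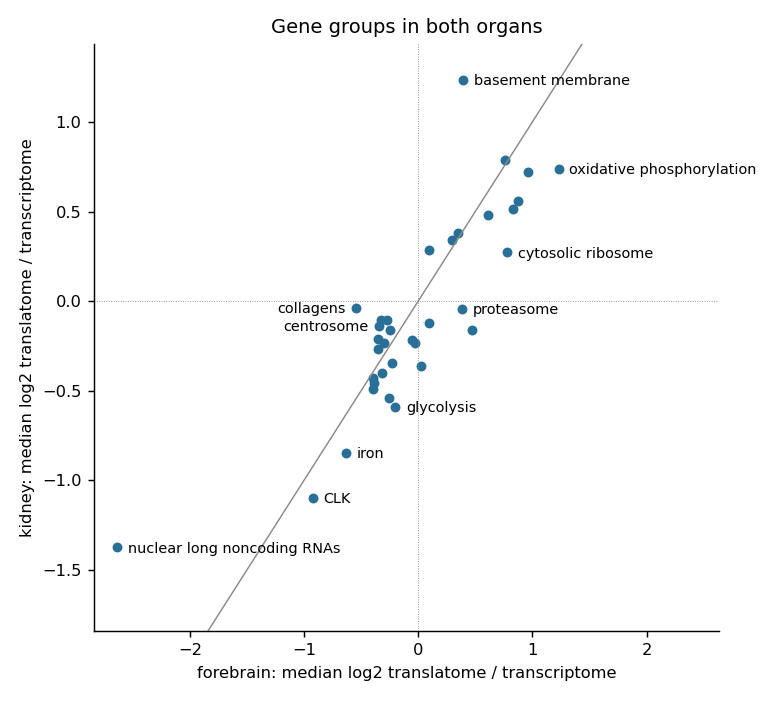
Median change (log2 ratio of translatome to transcriptome) of 35 functional gene groups in kidney (vertical axis) against forebrain (horizontal axis). Each group is 1 point, and the line is that of equal change. Hox genes are left out, all 37 having a mean under 1 RPKM in forebrain. The microRNA, small nucleolar and Cajal body RNAs are left out as well. Oxidative phosphorylation lies to the right of the line and basement membrane, collagens and centrosome above it.

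Matrix and centrosome genes moved the other way, as did Zfp genes (33 of 362 higher and 4 lower, 88 and 7 with the block). Median coding lengths were 4584, 5451 and 4185 bases in the collagen, laminin and centrosome groups. They were 441, 456 and 933 bases in oxidative phosphorylation, the cytosolic ribosome and the proteasome. Whether the organ differences go with coding length was not tested. Collagens had a median of -0.04 in kidney and -0.54 in forebrain, and 10 of 43 had a higher change in kidney and none a lower one (19 and 1 with the block). For the laminin, nidogen, perlecan and agrin genes the medians were 1.23 and 0.39, with 4 of 15 higher (8 with the block). Agrn differed most among them, with a change of 1.71 in kidney and -0.25 in forebrain (difference 1.98 ± 0.10, adjusted p = 1.9e-08). Centrosome genes gave 7 higher of 31 and none lower (17 and 1 with the block), Nin changing by 1.49 in kidney and 0.10 in forebrain (difference 1.41 ± 0.06, adjusted p = 5.9e-09), and receptors 7 higher of 63 and none lower (14 and 1 with the block). The tRNA synthetase Mars was enriched in kidney and changed by -0.60 in forebrain (difference 1.15 ± 0.07, adjusted p = 1.1e-07). Malat1 and Meg3 were lost less in kidney, Meg3 by -3.57 against -6.47 (difference 2.92 ± 0.16, adjusted p = 3.9e-08).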

How the data were processed

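Polyadenylated RNA was sequenced from TruSeq libraries, which do not mark strand. The authors aligned the reads with RUM to GRCm38 (mm10) and counted them per RefSeq transcript with rpkmforgenes; the deposited tables give for each of 23827 rows a read count and an RPKM value. The deposited RPKM values were used to show levels and the deposited counts for every test. The 6 libraries of kidney were grouped by their labels. Counts of 3 translatome libraries were tested against 3 transcriptome libraries with edgeR 4.0.16 (R 4.3.3; TMM scaling, quasi-likelihood test, no replicate block) over the 19336 rows with at least 1 read, with Benjamini-Hochberg adjustment and a threshold of 0.001. Alternatives were other scalings, DESeq2 1.42.0, a filter on low counts, each repeated row once, mRNA rows only, the replicate block, 1 sequencing run and leaving out each library. The edgeR steps were tested on simulated data with known changes.

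Libraries of the same replicate number came from the same tissue sample by the study's sample list. Their deviations from the group means correlated at 0.72 to 0.75 over 13210 rows, against -0.46 to -0.29 for other pairs, so the numbers pair the libraries. Replicates are pools of 4 kidneys each.

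The gene groups and members were chosen with earlier results of these data known. Genes were named by rule: Rpl10a, the 15 mRNAs with the largest rise and the 15 with the largest fall at 5 RPKM or more in the higher group without overlap, the 5 noncoding rows that rose and the 10 that fell most at 1 RPKM or more, up to 3 called members per gene group and direction, or the 2 most abundant where none was called, and any cell type marker. Other genes were chosen after their values were seen, namely the laminin, collagen, Hox, iron, CLK and Notch members outside the rule, the long mRNAs enriched at least 2-fold, the depleted respiratory subunits, Xist, the neighbours in overlapping loci and the small nucleolar RNAs. The difference of a gene group from its coding-length deciles was an alternative chosen after seeing the data. Coding and untranslated lengths came from GENCODE vM21 by RefSeq accession for 20621 of 20917 mRNA rows; annotated transcripts, not the ones in use, give these lengths. Protein features were not analysed here. Python 3.11.15, pandas 2.3.3, numpy 2.4.6 and matplotlib 3.10.9 were used. Counting error is small at these depths for all but the small RNAs, and limits from a count of 0 cover counting error only. Some members of the gene groups are not reported here by name.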

Additional observations from a re-analysis of the deposited data

Results flagged for a closer look

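The genes named here differed in their change between kidney and forebrain, by the interaction test over 12 libraries at an adjusted p under 0.001 in edgeR's quasi-likelihood test with Benjamini-Hochberg adjustment. The value after each gene is the kidney change minus the forebrain change on the log2 scale. Of matrix and surface genes, the difference was above 0 for Agrn (1.98), Lama3 (1.55), Cspg4 (0.98), Adamts7 (0.95), Lama5 (0.92), Col2a1 (0.90), Fras1 (0.86), Col4a1 (0.83), Hspg2 (0.81) and Col4a2 (0.75), and below 0 for the procollagen protease Bmp1 (-0.58). Of cytoskeletal, junction and trafficking genes it was above 0 for Nin (1.41), Akap9 (1.05), Tln1 (0.79) and Crocc (0.75) and for the nucleoporin Nup214 (0.93), and below 0 for the desmosomal Dsp (-1.05) and the adaptor Ap2s1 (-0.45).

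Among genes of energy metabolism the differences were below 0, for the respiratory subunits Atp5a1 (-0.62), Ndufv1 (-0.58) and Atp5b (-0.54) and the glycolytic Hk1 (-0.53) and Pfkm (-0.38). In the translation machinery and its targeting they were below 0 for Eif5b (-0.64), Srp68 (-0.52) and Eif3c (-0.47) and above 0 for Mars (1.15) and Eif4e3 (0.74). Among regulators they were above 0 for Srrm2 (0.72), Notch2 (0.57), Notch1 (0.49) and Sall1 (0.47). Noncoding RNAs gave Meg3 (2.92), Malat1 (1.29), Tug1 (0.45) and Gas5 (-0.69). The remaining genes were Prrt2 (-1.51), Txnrd3 (-0.67), Slc4a3 (-0.61), Fth1 (-0.58) and Leng8 (1.02).

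Every kidney group held 3 libraries, so no library was tested for standing apart within its group.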

How the results depend on the processing

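Against 2880 enriched and 3049 depleted transcripts, the replicate block gave 4636 and 4860 (with robust moderation 4623 and 4843), DESeq2 3500 and 3511, RLE scaling 2938 and 2988, total counts 2910 and 3018, the filter of at least 10 counts 2868 and 2873, and the single sequencing run 1945 and 1791. Leaving out 1 library gave 2412 to 2732 enriched and 2512 to 2751 depleted, and in gene groups with 3 or fewer members called in a direction such counts moved by up to 2. The interaction counts rose to 1978 and 1467 with the block. Beyond the calls given beside the results, the block changed no call of a named gene. Directions that turned were those of genes without a call: Dbh (within the run -0.28, without a library -1.23 to 0.58), Gdnf (0.00554 with RLE, 0.00292 with total counts, 0.00823 with the count filter, 0.00543 with DESeq2, and -0.11 to 0.11 without a library) and Hoxd11 (-0.0297 to 0.101 without a library). Among mRNAs over 5 RPKM, and among those with a read in each of the 6 libraries, the median change was 0.75 and 0.69 for the shortest coding sequences and -0.40 and -0.35 for the longest. The medians of collagens, Hox genes, podocyte markers and neural markers passed 0 under some settings. Set against coding-length deciles, the medians of cytosolic ribosome, ER translocation, histone and Hox genes and of nephron progenitor markers lay below 0, and those of collagens, integrins, receptors, giant linkers, centrosome and Zfp genes and of neural markers above 0, each on the other side than before. The cause of these shifts was not tested. The filter of at least 10 counts ended the call of Foxd1. The run shared with the transcriptome holds 1 translatome library, which with annotated lengths limits what the values carry, and low counts limit the small RNAs.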
